A study of Homo sapiens with 6 samples.

Results

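The ErbB receptors EGFR, ERBB2 and ERBB3, the hepatocyte growth factor receptor MET, and the EGF family ligands AREG, EREG, TGFA, HBEGF, NRG1 and BTC were followed in the human cell line A549, which derives from a lung adenocarcinoma. The 10 genes were listed by name. All 10 were among the 19876 gene symbols of the deposited count table, and all 10 passed the filter on low counts that left 13567 tested genes. RNA sequencing was done on 3 libraries of A549 cells cultured with rhTR11B and on 3 libraries of A549 cells given PBS, the negative control. Every library carried the genotype label WT and came from the same line, grown in DMEM with fetal bovine serum. Neither the meaning of rhTR11B nor a dose or duration stands in the labels. TR11B is a short name of TNFRSF11B, or osteoprotegerin, a secreted decoy receptor for ligands of the TNF family. The libraries are called biological replicates, but separate cultures are not described, so the p-values rest on a spread among libraries that may be technical.

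ErbB receptors are cell-surface tyrosine kinases that work as pairs. EGFR binds the products of TGFA, AREG, EREG, HBEGF and BTC, ERBB2 has no known soluble ligand and serves as a partner, and ERBB3, whose own kinase is weak, binds the neuregulin encoded by NRG1. The ligands are made as membrane-anchored precursors and are released by metalloproteinases. MET answers hepatocyte growth factor and can be co-activated with EGFR in lung cancer cells.

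The libraries held 36315751 to 36992958 counts with rhTR11B and 37203313 to 38148838 counts with PBS. Of the tested genes, 396 were higher and 92 lower with rhTR11B by edgeR's quasi-likelihood test at a Benjamini-Hochberg adjusted p under 0.05, which is 3.6% of all tested genes. The 13 mitochondrially encoded genes took 7.88% to 10.4% of counts with rhTR11B and 6.63% to 7.71% with PBS, and the 82 genes with cytosolic ribosomal protein symbols took 3.85% to 4.57% with rhTR11B and 5.00% to 5.15% with PBS. rhTR11B replicate 3 had the highest mitochondrial and the lowest ribosomal share. The keratin genes KRT8, KRT18 and KRT7 and the quinone reductase gene NQO1 averaged 91.5 to 467 FPKM in either group, while KRT19, EPCAM and CDH1 (E-cadherin), markers of epithelial cells, had at most 5, 10 and 1 counts in any library. KRT8, KRT18 and KRT7 thus match the label of an epithelial line, and KRT19, CDH1 and EPCAM do not. AKR1B10, AKR1C1 and ALDH1A1, also listed as markers of A549, were not among the gene symbols. Of 5 listed alveolar type II markers, the surfactant genes SFTPC, SFTPA1 and SFTPB were not among the gene symbols. ABCA3 rose by 0.27 on the log2 scale (edgeR adjusted p = 0.0429) and LAMP3 had 21 to 40 counts. ABCA3 and LAMP3 summed to 138 to 162 CPM (counts scaled by library size) with rhTR11B and 113 to 129 CPM with PBS, nearly all from ABCA3. Among markers of other cells, the 4 fibroblast genes in the table summed to 4.18 to 6.19 CPM with rhTR11B and 2.65 to 3.56 CPM with PBS, nearly all from COL1A1, with DCN and PDGFRB at 0 or 1 count in every library. The 3 endothelial genes in the table summed to 0.192 to 0.241 CPM with rhTR11B and 0.131 to 0.416 CPM with PBS, and the monocyte marker CD14 to 0.188 to 0.589 CPM with rhTR11B and 0.182 to 0.401 CPM with PBS. In bulk RNA, fewer cells of a kind and less RNA per cell cannot be told apart, and the part of these markers and shares in the results was not tested.

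On the FPKM scale, EGFR, MET, ERBB2 and ERBB3 each stood above every listed ligand, ERBB3 by the least. The FPKM scale divides by a gene length, and comparisons between genes rest on that length. EGFR averaged 86.2 ± 5.11 FPKM with rhTR11B and 74.8 ± 0.633 FPKM with PBS (SD, n = 3 each). MET followed with 50.5 ± 2.32 FPKM with rhTR11B and 48.2 ± 1.65 FPKM with PBS. Next came ERBB2, with 22.4 ± 1.92 and 18.8 ± 1.37 FPKM in rhTR11B and PBS libraries, and ERBB3, with 16.7 ± 1.11 and 14.5 ± 0.318 FPKM in rhTR11B and PBS libraries. Each receptor lay wholly above the next in both groups. Among 36 receptor tyrosine kinase genes in the table, EGFR had the highest mean FPKM, MET ranked 3, ERBB2 8 and ERBB3 11. The libraries of EGFR overlapped in both groups with those of the ephrin receptor gene EPHA2, ranked 2, and those of ERBB2 overlapped in both groups with MST1R, ranked 7. MET and DDR1, ranked 4, overlapped with rhTR11B, and MET lay wholly above DDR1 with PBS. ERBB2 lay wholly above EPHB4, ranked 9, with rhTR11B and overlapped with it under PBS. ERBB3 overlapped with RYK and FGFR4, ranked 10 and 12, under rhTR11B, and with PBS it lay wholly below RYK and wholly above FGFR4. ERBB4, the remaining family receptor, ranked 26, at 0.0919 ± 0.0268 FPKM with rhTR11B and 0.0815 ± 0.0131 FPKM with PBS.

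Of the ligands, EREG, TGFA and HBEGF lay close together. EREG (epiregulin) averaged 10.8 ± 0.918 FPKM with rhTR11B and 9.79 ± 0.973 FPKM with PBS, TGFA 9.70 ± 0.370 FPKM with rhTR11B and 9.34 ± 0.433 FPKM with PBS, and HBEGF 8.57 ± 0.408 FPKM with rhTR11B and 8.98 ± 0.173 FPKM with PBS. The libraries of EREG and TGFA overlapped in both groups, and those of TGFA and HBEGF overlapped with PBS, whereas with rhTR11B both EREG and TGFA lay wholly above HBEGF. NRG1 stood lower, at 4.14 ± 0.156 FPKM with rhTR11B and 4.13 ± 0.199 FPKM with PBS, and AREG (amphiregulin) lower again, at 2.56 ± 0.312 FPKM with rhTR11B and 2.18 ± 0.0996 FPKM with PBS. BTC (betacellulin) was close to silent, with 5, 12 and 15 counts in rhTR11B replicates 1, 2 and 3 and 16, 7 and 14 counts in PBS replicates 1, 2 and 3. The 6 ligands together reached 34.0, 35.5 and 37.9 FPKM in rhTR11B replicates 1, 2 and 3 and 34.4, 35.9 and 33.2 FPKM in the PBS replicates, of which EREG made up 28.8% to 30.7% with rhTR11B and 26.3% to 29.6% with PBS.

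**Figure D1:**
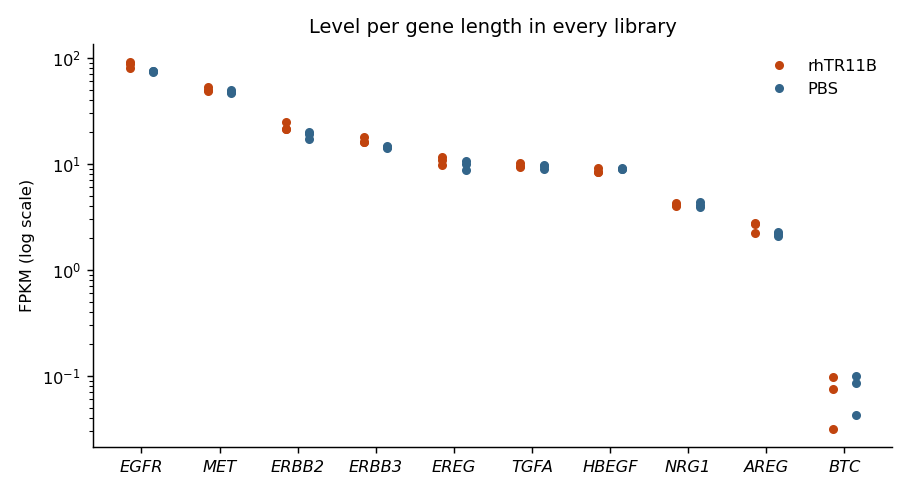
FPKM of each gene in every library on a log axis, with genes ordered by their mean and rhTR11B libraries (orange) left of PBS libraries (blue). The 4 receptors lie above all ligands, EREG, TGFA and HBEGF lie close together, and BTC averages 0.0680 FPKM with rhTR11B and 0.0764 FPKM with PBS.

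Of the ligand genes, 3 are neighbours. EREG, AREG and BTC lie within 429 kb on chromosome 4 (EREG at 74365145 to 74388749, AREG at 74445136 to 74455005, BTC at 74744759 to 74794523, RefSeq on GRCh38.p14), and their levels differed from 10.8 FPKM for EREG to 0.0680 FPKM for BTC with rhTR11B and from 9.79 FPKM for EREG to 0.0764 FPKM for BTC with PBS. RefSeq promoter sequences were at hand for 8 of the 10 genes. The 250 bases before the RefSeq start are printed here for EGFR, ERBB2 and MET, because the libraries separated for EGFR and ERBB2 and not for MET, and for the neighbouring ligand genes, because their levels differ so widely. Sequences are in the direction of transcription, on GRCh38.p14. As a check, the bases after the start were sought in reference transcripts of the same gene. They were found for each printed gene but MET. Capitals mark matches, on either strand, to GGGCGG (the GC box bound by SP1), TATAAA (the TATA box), TGACTCA (the AP-1 site) or TGACGTCA (the cyclic AMP response element). No marked matches overlap.
EGFR, chr7:55018767-55019016, plus strand: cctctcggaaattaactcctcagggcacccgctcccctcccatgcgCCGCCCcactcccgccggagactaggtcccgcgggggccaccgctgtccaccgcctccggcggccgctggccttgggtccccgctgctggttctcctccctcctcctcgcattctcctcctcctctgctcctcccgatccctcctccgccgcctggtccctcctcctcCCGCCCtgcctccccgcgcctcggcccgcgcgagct
ERBB2, chr17:39687844-39688093, plus strand: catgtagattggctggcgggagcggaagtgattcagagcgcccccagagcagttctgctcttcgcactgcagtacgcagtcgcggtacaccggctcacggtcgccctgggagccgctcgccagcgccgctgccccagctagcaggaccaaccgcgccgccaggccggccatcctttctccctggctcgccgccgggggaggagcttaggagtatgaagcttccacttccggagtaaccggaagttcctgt
MET, chr7:116671946-116672195, plus strand: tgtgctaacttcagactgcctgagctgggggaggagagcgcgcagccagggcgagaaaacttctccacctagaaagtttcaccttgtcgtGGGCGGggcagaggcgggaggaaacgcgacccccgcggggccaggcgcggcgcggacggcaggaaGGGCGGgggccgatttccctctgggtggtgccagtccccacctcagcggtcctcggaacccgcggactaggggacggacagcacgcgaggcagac
EREG, chr4:74364895-74365144, plus strand: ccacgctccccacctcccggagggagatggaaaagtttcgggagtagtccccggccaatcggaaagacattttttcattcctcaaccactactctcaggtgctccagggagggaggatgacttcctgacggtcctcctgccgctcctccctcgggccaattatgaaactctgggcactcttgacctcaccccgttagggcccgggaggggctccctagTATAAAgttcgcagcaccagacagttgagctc
AREG, chr4:74444886-74445135, plus strand: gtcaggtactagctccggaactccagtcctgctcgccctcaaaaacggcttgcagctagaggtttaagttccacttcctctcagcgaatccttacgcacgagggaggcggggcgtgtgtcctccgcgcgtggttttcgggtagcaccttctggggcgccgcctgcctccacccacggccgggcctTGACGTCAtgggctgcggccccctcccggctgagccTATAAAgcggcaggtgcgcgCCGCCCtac
BTC, chr4:74794524-74794773, minus strand: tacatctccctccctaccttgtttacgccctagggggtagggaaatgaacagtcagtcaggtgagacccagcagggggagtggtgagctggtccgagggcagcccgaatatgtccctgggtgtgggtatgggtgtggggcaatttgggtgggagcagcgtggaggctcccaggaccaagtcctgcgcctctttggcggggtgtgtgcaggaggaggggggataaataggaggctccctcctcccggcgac

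The promoters of EGFR and MET held 2 GC boxes each and that of AREG 1, and those of ERBB2, EREG and BTC had no match to GGGCGG. A GC box was present in 42.6% of all 35116 promoter windows of the same length. EREG and AREG each had a TATAAA, beginning 32 bases before the start in EREG and 29 in AREG, whereas BTC had none in this window, and 10.7% of all windows held it. AREG alone of the 6 held the cyclic AMP response element, found in 1.65% of windows. The AP-1 letters, found in 4.2% of windows, occurred in none of the 6. GC content was 73.6% for EGFR, 68.4% for MET, 65.6% for ERBB2, 65.2% for AREG, 62% for BTC and 58% for EREG. The last equals the median of all windows. A match or its lack in such a window describes letters and not binding.

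The other loci are EGFR on chromosome 7 (55019017 to 55211628), MET on chromosome 7 (116672196 to 116798377), ERBB2 on chromosome 17 (39688094 to 39728658), ERBB3 on chromosome 12 (56080108 to 56103505), TGFA on chromosome 2 (70447284 to 70553826), HBEGF on chromosome 5 (140332843 to 140346603) and NRG1 on chromosome 8 (31639245 to 32774046). The first bases of EREG overlap the RNA gene LOC105377276, which had 26 to 47 counts in a library.

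With rhTR11B, ERBB2 rose. EGFR and ERBB3 had positive fold changes just outside the threshold, and MET and the 6 ligands did not pass. Thus 1 of 10 genes was called higher and 0 lower, where 2.92% of all tested genes were called higher and 0.678% lower. At an unadjusted p under 0.05, 3 were higher and 0 lower, where 13.8% of all tested genes were higher and 24.2% differed in either direction. The groups did not overlap for the same 3, where 15.1% of all tested genes separated upward and 29.1% in either direction. With 10 genes these counts are a description, and nothing particular to the family is read from them. The median log2 fold change of the 10 genes was 0.12, and 8 of 10 were positive. DESeq2 called 3 of the 10 higher, and limma-voom 1. The comparison asked which transcripts differ between A549 cells given rhTR11B and those given PBS.

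EGFR had 929, 989 and 1056 CPM in rhTR11B replicates 1, 2 and 3, against 852, 849 and 847 CPM in PBS replicates 1, 2 and 3. The groups did not overlap, and the PBS libraries were almost level. Their coefficient of variation of 0.293% was below the 0.541% that counting alone gives at this depth, whereas it was 6.42% among rhTR11B libraries. The fold of 1.17 (log2 fold change 0.22, SE 0.06, 95% interval 0.09 to 0.36) had an adjusted p of 0.0550 in edgeR. Leaving out rhTR11B replicate 1 or replicate 3 gave an adjusted p of 0.0246 or 0.0440, and DESeq2 gave 0.00773. In all, EGFR passed in 4 of 17 alternatives. It did not pass with the length offset (log2 fold change 0.17, adjusted p = 0.114), and without PBS replicate 1, 2 or 3 the adjusted p was 0.113, 0.214 and 0.198.

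ERBB2 had 135, 135 and 159 CPM in rhTR11B replicates 1, 2 and 3, against 125, 108 and 121 CPM in the PBS replicates. Replicate 3 was the highest of the rhTR11B libraries and replicate 2 the lowest with PBS, and the groups did not overlap. ERBB2 rose 1.21-fold (log2 fold change 0.28, SE 0.07, 95% interval 0.12 to 0.43, edgeR adjusted p = 0.0451). The call was lost without rhTR11B replicate 3 (log2 fold change 0.19, adjusted p = 0.0754) and without PBS replicate 1, 2 or 3 (adjusted p = 0.0507, 0.218 and 0.175), and a per-library offset for gene length gave 0.23 (adjusted p = 0.0637). The 3' end of ERBB2 overlaps MIEN1, a gene whose counts of 950, 1001 and 883 with rhTR11B and 1019, 1068 and 1082 with PBS ran the other way. Since the strand setting of the counting is not given, reads in the overlap cannot be assigned with certainty.

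ERBB3 had 99.1, 96.6 and 112 CPM with rhTR11B, against 88.0, 85.9 and 90.9 CPM with PBS, in replicates 1, 2 and 3 of each group. The groups did not overlap, and rhTR11B replicate 3 was again the highest. The log2 fold change was 0.22 (SE 0.06, 95% interval 0.08 to 0.35, edgeR adjusted p = 0.0621). It was 0.14 without rhTR11B replicate 3, and its adjusted p was 0.0434 without rhTR11B replicate 1 and 0.0357 in DESeq2. ERBB3 passed in 4 of 17 alternatives, and its adjusted p reached 0.223 with 1 library left out.

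MET had 353, 351 and 388 CPM with rhTR11B, against 341, 354 and 335 CPM with PBS, in replicates 1, 2 and 3 of each group. The groups overlapped, since PBS replicate 2 exceeded rhTR11B replicates 1 and 2. The log2 fold change of 0.09 (SE 0.06, edgeR adjusted p = 0.405) has a 95% interval of -0.04 to 0.21, which includes no change and also part of the interval of EGFR. Set against MET in the same library, EGFR stood at 1.71 ± 0.0570 with rhTR11B and 1.55 ± 0.0416 with PBS on the FPKM scale, ERBB2 at 0.444 ± 0.0172 with rhTR11B and 0.390 ± 0.0391 with PBS, and ERBB3 at 0.330 ± 0.00772 with rhTR11B and 0.302 ± 0.0167 with PBS (SD, n = 3 each). All 3 ratios were higher in every rhTR11B library than in any PBS library (two-sided exact permutation p = 0.1 each, the smallest that 3 against 3 libraries allow, and 0.125 adjusted over 5 ratios). The ratios share MET as divisor and restate the levels given above, so they are not separate evidence. EGFR relative to ERBB2 was 3.85 ± 0.194 with rhTR11B and 4.00 ± 0.316 with PBS, and those groups overlapped (exact permutation p = 0.6, adjusted p = 0.6).

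**Figure D2:**
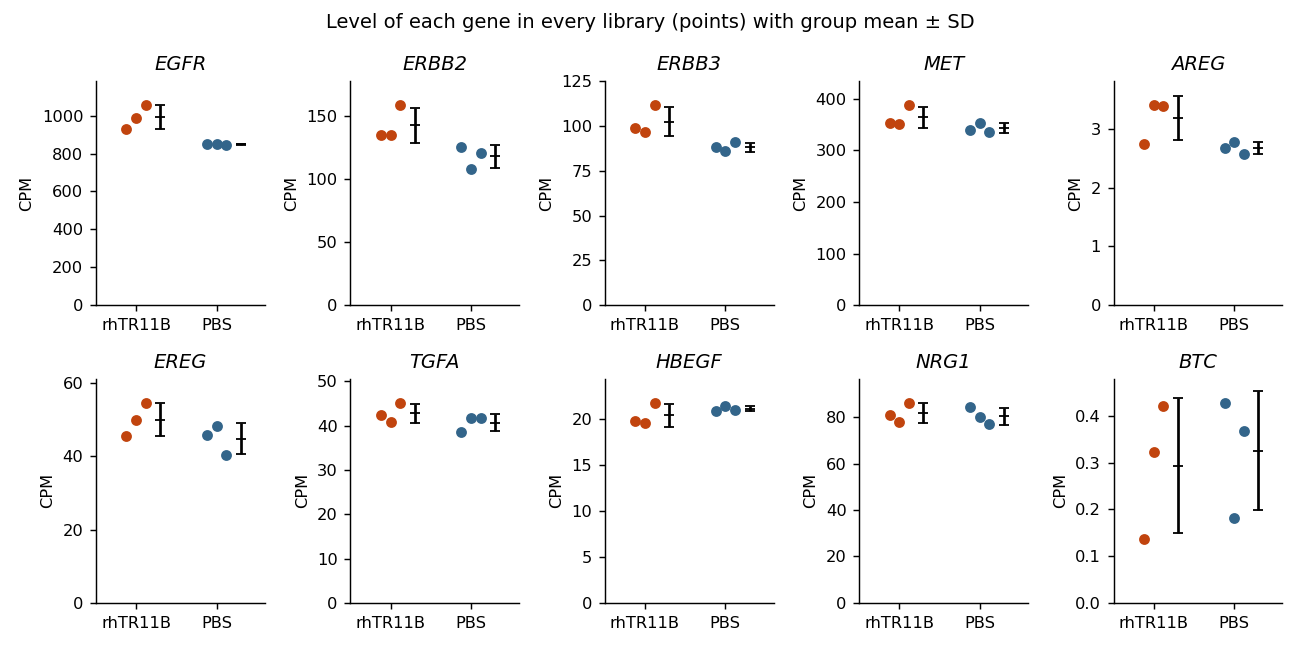
CPM of each gene in every library (points; replicates 1 to 3 from left to right) with the group mean and SD (black), rhTR11B left of PBS, each axis starting at 0. The groups separate for EGFR, ERBB2 and ERBB3 and overlap for MET and the 6 ligands, and rhTR11B replicate 3 is the highest library for all 4 receptors.

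Among EGFR ligands, EREG was the nearest to a change. It had 45.6, 49.9 and 54.7 CPM with rhTR11B, against 46.0, 48.4 and 40.3 CPM with PBS, in replicates 1, 2 and 3 of each group. The ranges overlapped, and the log2 fold change was 0.16 (SE 0.08, 95% interval -0.01 to 0.32, edgeR adjusted p = 0.236). Without rhTR11B replicate 3, its highest library, or PBS replicate 3, its lowest, it was 0.08. AREG, counted 100, 127 and 121 times with rhTR11B and 100, 107 and 98 times with PBS, had a log2 fold change of 0.25 with a wide interval from -0.12 to 0.61 (edgeR adjusted p = 0.397). Its counting error of 9.59% per library is as large as much of its spread. TGFA had 42.3, 40.9 and 45.2 CPM with rhTR11B, against 38.6, 41.8 and 41.8 CPM with PBS, and a log2 fold change of 0.07 (95% interval -0.07 to 0.21, edgeR adjusted p = 0.551).

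HBEGF, which encodes a heparin-binding ligand, pointed slightly the other way. It had 19.7, 19.6 and 21.7 CPM with rhTR11B and 20.9, 21.4 and 20.9 CPM with PBS, with overlap through rhTR11B replicate 3 (log2 fold change -0.05, 95% interval -0.21 to 0.11, edgeR adjusted p = 0.735). EREG relative to HBEGF was 1.26 ± 0.0660 with rhTR11B and 1.09 ± 0.0930 with PBS on the FPKM scale (SD, n = 3 each), higher in every rhTR11B library than in any PBS library (exact permutation p = 0.1, the smallest possible, and 0.125 adjusted over 5 ratios). This ratio restates the levels of EREG and HBEGF and is not separate evidence. NRG1, the ligand of ERBB3, had 81.0, 78.0 and 86.2 CPM with rhTR11B and 84.3, 80.0 and 77.1 CPM with PBS. Its log2 fold change was 0.02 (95% interval -0.11 to 0.15, edgeR adjusted p = 0.857). Like that of MET, the interval leaves out the estimates of EGFR, ERBB2 and ERBB3 but overlaps their intervals. A difference between NRG1 and these receptors was not tested. For BTC, the wide interval from -1.18 to 0.88 shows that changes within this range could not be resolved at this depth.

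**Figure D3:**
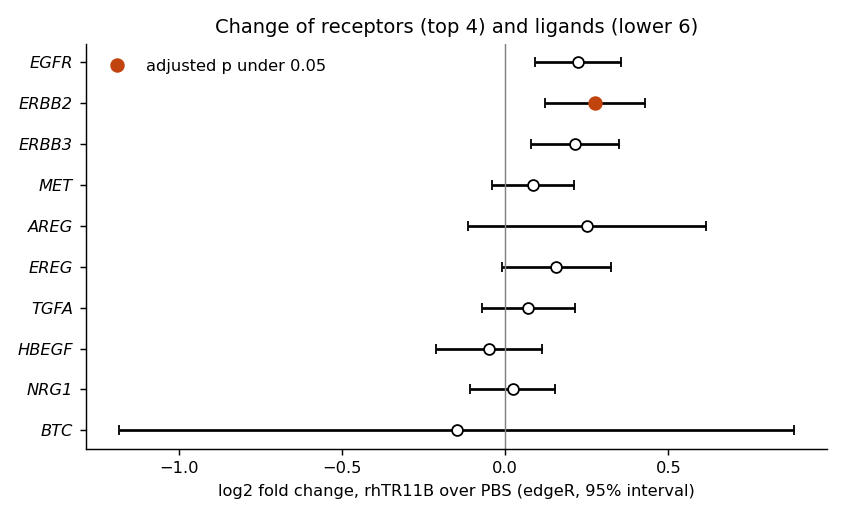
log2 fold change of rhTR11B over PBS with its 95% interval from the edgeR fit, receptors above ligands. ERBB2 is the gene past the adjusted p threshold (filled), the intervals of EGFR and ERBB3 also lie above 0, and BTC has the widest interval.

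No other tested gene of the ErbB and MET family passed the test (0 of 4 in edgeR, 2 higher and 0 lower at an unadjusted p under 0.05, and 0 in DESeq2). Over all tested genes edgeR called 3.6%, and 13.8% were higher at an unadjusted p under 0.05. ERBB4 had 34, 37 and 56 counts with rhTR11B and 45, 37 and 34 counts with PBS (log2 fold change 0.19, edgeR adjusted p = 0.730). The neuregulin gene NRG2 had 9.87 ± 1.39 CPM with rhTR11B and 8.68 ± 0.267 CPM with PBS (log2 fold change 0.18, adjusted p = 0.335). MST1R, the MET-related receptor also called RON, had 103, 112 and 147 CPM with rhTR11B and 115, 91.9 and 97.6 CPM with PBS (log2 fold change 0.25, adjusted p = 0.145), and the gene of its ligand, MST1, 2.22, 2.55 and 4.60 CPM with rhTR11B and 2.33, 1.84 and 2.07 CPM with PBS (log2 fold change 0.58, adjusted p = 0.151). Both stood highest in rhTR11B replicate 3. Without that library the log2 fold change was 0.08 for MST1R and 0.19 for MST1. The adjusted p without rhTR11B replicate 1 was 0.0241 for MST1R and 0.0420 for MST1, and neither passed in the other 5 fits with 1 library left out. EPGN and NRG4 had at most 3 counts and 1 count in a library, and EGF, HGF and NRG3 were not among the gene symbols.

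Of the other receptor tyrosine kinases, several rose. This list and those that follow were chosen with earlier results of these data known. Their counts beside the shares over all tested genes are therefore a description. Of 44 listed, 30 were in the table and 20 were tested. In edgeR 5 rose and 0 fell, where 2.92% of all tested genes were called higher (12 higher and 0 lower at an unadjusted p under 0.05; DESeq2 called 6 higher), 19 of 20 had a positive log2 fold change against 6788 of all 13567 tested genes, and the median was 0.23 against 7.3e-05 over all tested genes. The collagen receptor DDR1 rose to 263 ± 24.7 CPM with rhTR11B, against 203 ± 15.4 CPM with PBS (log2 fold change 0.37, SE 0.07, adjusted p = 0.0137). The pseudokinase PTK7 rose by 0.37 (adjusted p = 0.0163), FGFR1 by 0.30 (0.0294), the insulin-like growth factor receptor IGF1R by 0.33 (0.0436) and STYK1 by 0.50 (0.0451), all on the log2 scale. AXL, which like MET is linked to resistance against EGFR inhibitors, had 0.11 (adjusted p = 0.288). Leaving out PBS replicate 2 or PBS replicate 3 gave 0 calls, leaving out PBS replicate 1 or rhTR11B replicate 2 gave 3, rhTR11B replicate 3 gave 2 and rhTR11B replicate 1 gave 7, and the median stayed between 0.18 and 0.28 in these fits. A mean of at least 5 CPM or the length offset left 3 calls and the FPKM fits 0.

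Among receptor co-factors and ligand-binding proteins at the cell surface, 7 of 11 tested genes rose, all 11 were positive, and the median log2 fold change was 0.34. Over all 13567 tested genes 2.92% were called higher, 6788 were positive, and the median was 7.3e-05. Since this list too was chosen with earlier results of these data known, the comparison is a description. CD44, a hyaluronan receptor that can present growth factors to ErbB receptors and MET, rose to 846 ± 74.0 CPM with rhTR11B, against 667 ± 18.8 CPM with PBS (log2 fold change 0.34, SE 0.07, edgeR adjusted p = 0.0145). The heparan sulfate proteoglycans SDC1, GPC1 and SDC4, which hold heparin-binding ligands such as HBEGF and AREG, rose by 0.35 (adjusted p = 0.0180), 0.34 (0.0370) and 0.23 (0.0497). The plexin PLXNB2 rose by 0.29 (adjusted p = 0.0335), the semaphorin SEMA4D by 0.35 (0.0400) and the laminin receptor chain ITGA6 by 0.22 (0.0479). MUC1 had 0.34 (adjusted p = 0.0718) and ITGB4 0.51 (0.108). No call was made without PBS replicate 2 or 3, 3 were made without rhTR11B replicate 3, with a mean of at least 5 CPM or with a per-library offset for gene length, and 0 in the FPKM fits. In the 6 fits with 1 library left out the median was 0.24 to 0.36.

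The list of ligand shedding and trafficking, also chosen with earlier results of these data known, held calls as well. Of 11 tested genes of ligand shedding and trafficking 4 rose, 11 of 11 were positive, and the median log2 fold change was 0.19, beside the 2.92% called higher, 6788 of 13567 positive and median of 7.3e-05 over all tested genes. ADAM10, a sheddase of betacellulin and EGF in mouse cells, rose to 246 ± 16.0 CPM with rhTR11B, against 208 ± 7.97 CPM with PBS (log2 fold change 0.24, SE 0.06, edgeR adjusted p = 0.0423). ADAM17, the main sheddase of TGFA, AREG, EREG and HBEGF, had 0.27 (adjusted p = 0.05003, just outside the threshold), and RHBDF2, an inactive rhomboid that carries ADAM17 to the surface, rose by 0.27 (0.0451). The tetraspanins CD82 and CD9, of which CD9 associates with the HBEGF precursor, rose by 0.48 (adjusted p = 0.00882) and 0.29 (0.0496). The remaining tested genes of this list, ADAM9, ADAM15, RHBDF1, FRMD8, FURIN and CNIH1, were not called. Their edgeR adjusted p values were 0.516, 0.176, 0.471, 0.899, 0.0886 and 0.677. Release of the ligands was not measured. In the list on activation of hepatocyte growth factor and its inhibitors 3 genes were tested. The protease gene PLAU and the protease inhibitor gene SPINT2 rose by 0.38 (adjusted p = 0.0196) and 0.29 (0.0350). HGFAC and ST14 of this list were too low to be tested. HGFAC averaged 0.154 CPM with rhTR11B and 0.0616 CPM with PBS, and ST14 0 and 0.0356 CPM. Activation itself was not measured. Without PBS replicate 2 or 3, 0 genes of either list were called. Without rhTR11B replicate 3 and without PBS replicate 1, 2 and 1 of the shedding genes were called. With library size alone or a mean of at least 5 CPM 1 shedding gene was called, and with the length offset 2. With a mean of at least 5 CPM 1 gene of the activation list was called, and the FPKM fits gave 0 or 1 call in the shedding list and 0 in the activation list.

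In the lists of adaptors, signalling genes and receptor inhibitors edgeR called no gene. Over all tested genes it called 3.6%, and 24.2% had an unadjusted p under 0.05. At that share lists of this size hold few calls, and nothing particular to them is read from the counts. Of 22 tested receptor-proximal adaptors and enzymes edgeR called 0 (1 higher and 3 lower at an unadjusted p under 0.05; DESeq2 called 1 higher and 1 lower), and the median log2 fold change was -0.03. GRB7, an adaptor of ERBB2, had 56.8 ± 2.80 CPM with rhTR11B and 48.5 ± 2.67 CPM with PBS (log2 fold change 0.23, adjusted p = 0.0584), and the adaptor SHC1 1121 ± 43.3 CPM with rhTR11B and 1263 ± 46.7 CPM with PBS (-0.17, adjusted p = 0.104). Of 30 tested RAS-ERK, PI3K-AKT and STAT genes edgeR called 0 (0 higher and 3 lower at an unadjusted p under 0.05; DESeq2 called 1 lower), with a median of -0.05. HRAS had -0.21 (adjusted p = 0.0680) and NRAS -0.16 (0.166). Of 27 tested inhibitors, ubiquitin ligases and endocytic sorting genes edgeR called 0 (3 higher and 1 lower at an unadjusted p under 0.05; DESeq2 called 3 higher), with a median of -0.03. The nearest to passing were the receptor phosphatase PTPRK (0.21, adjusted p = 0.0531) and LRIG2 (0.22, 0.0607), both membrane proteins, while the feedback inhibitor ERRFI1 had 0.01 (0.932) and the ubiquitin ligase CBL -0.01 (0.935). Whether these lists differ from the lists of receptors, co-factors and ligand shedding and trafficking was not tested.

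Of 27 tested genes that EGFR and ERK signalling is known to induce, 1 rose, 12 were positive, and the median log2 fold change was -0.02. At an unadjusted p under 0.05 in edgeR 4 were higher and 2 lower, and DESeq2 called 1 higher and 1 lower. Over all tested genes edgeR called 3.6%, and 24.2% had an unadjusted p under 0.05. Nothing particular to the list is read from these counts. The stress and growth response gene IER3 rose to 295 ± 18.5 CPM with rhTR11B, against 250 ± 16.1 CPM with PBS (log2 fold change 0.24, SE 0.06, edgeR adjusted p = 0.0474), a call lost without PBS replicate 1, 2 or 3 and without rhTR11B replicate 2. UAP1, an enzyme of amino sugar synthesis, had -0.20 (adjusted p = 0.0650), the ERK phosphatase DUSP6 -0.02 (0.914), the immediate early gene EGR1 0.00 (0.999) and CCND1 -0.10 (0.317).

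**Figure D4:**
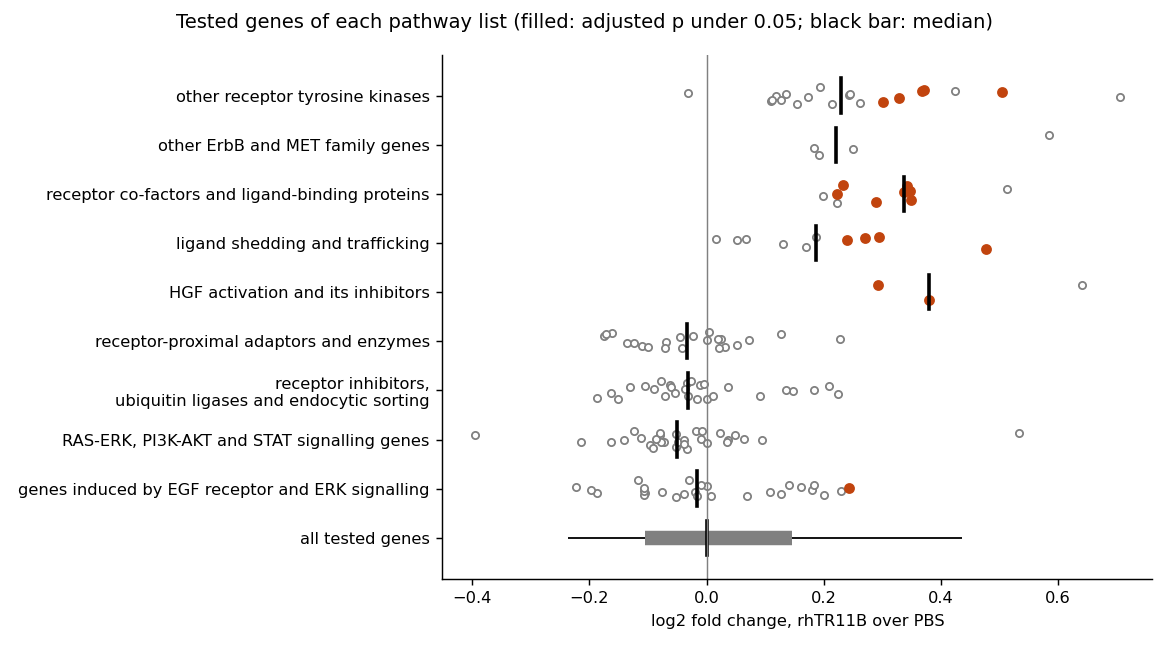
log2 fold change of rhTR11B over PBS for each tested gene of 9 pathway lists (points; filled past the adjusted p threshold) with the list median (black bar), above the 5, 25, 50, 75 and 95 percent points of all tested genes. The upper 5 lists, of receptors, co-factors, ligand shedding and trafficking, and growth factor activation and its inhibitors, have medians of 0.19 to 0.38. The lower 4, of adaptors, inhibitors, signalling and target genes, have medians of -0.05 to -0.02. All lists were chosen with earlier results of these data known.

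One library stood apart in level and in makeup. rhTR11B replicate 3 had the highest CPM of all 6 libraries for EGFR, ERBB2, ERBB3, MET, EREG, TGFA, HBEGF and NRG1, and it had the highest mitochondrial share (10.4%) and the lowest ribosomal protein share (3.85%). Without it, the log2 fold changes of EGFR, ERBB2, ERBB3 and MET were 0.17, 0.19, 0.14 and 0.03, against 0.22, 0.28, 0.22 and 0.09 with all libraries. The part of this makeup in the results was not tested.

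**Figure D5:**
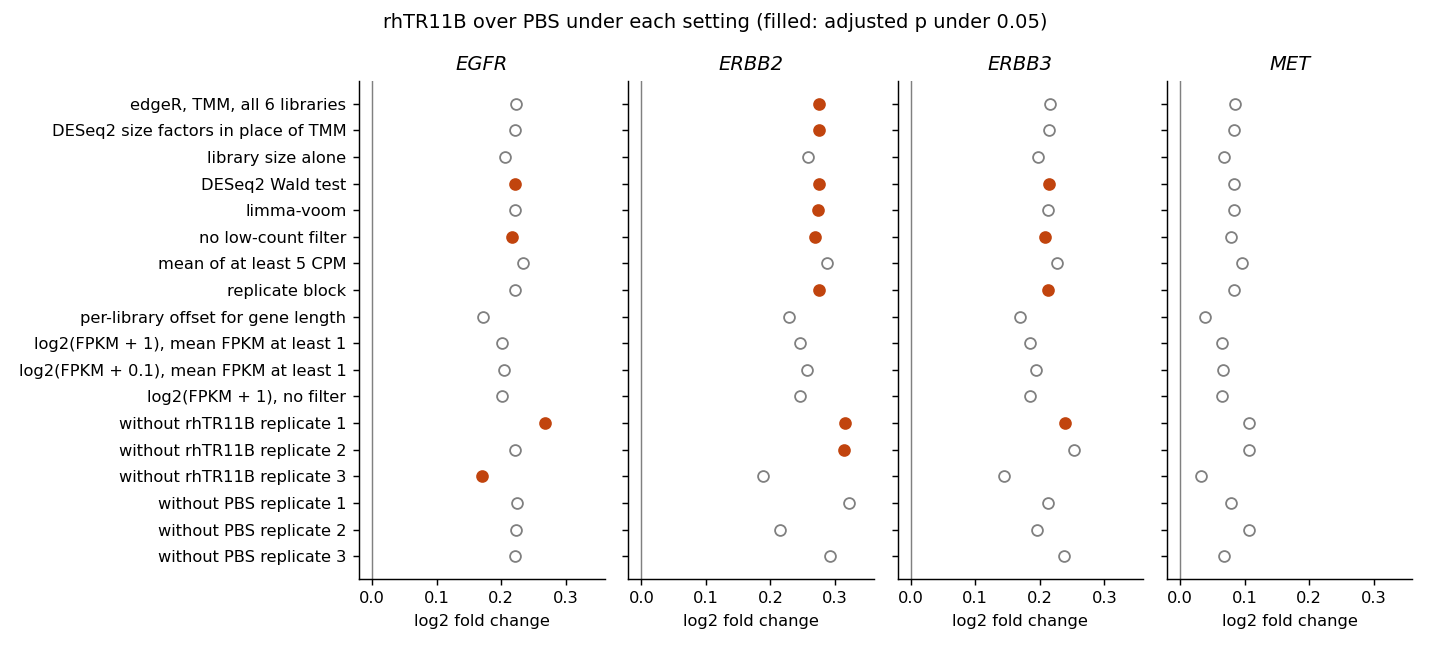
log2 fold change of rhTR11B over PBS for the 4 receptors under each of 18 settings (rows), filled where the adjusted p is under 0.05. The estimates stay above 0 in all rows and are smallest for MET, and the calls of EGFR, ERBB2 and ERBB3 come and go with the setting.

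The genes whose profile over the 6 libraries most resembled that of EGFR were ANO6, CCDC134 and TAP2. Likeness was measured as the root mean square difference of mean-centred log2 CPM among 11335 genes, and came to 0.0127, 0.0174 and 0.0185, against 0.123 between EGFR and a flat profile. ANO6 encodes a lipid scramblase of the plasma membrane and TAP2 a peptide transporter subunit of the endoplasmic reticulum. For MET the nearest were NDC1, SEC11A and NNT, at 0.0134, 0.0135 and 0.0157, and for AREG they were MTARC2, PACC1 and ALOX12-AS1, at 0.0331, 0.0362 and 0.0451. These are descriptions of 6 libraries, and the members of a pair share library and depth.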

How the data were processed

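RNA sequencing libraries of A549 cells, 3 given rhTR11B and 3 given PBS, were compared by the treatment in their labels. The deposited counts and the authors' FPKM values go back to GRCh38, fastp, HISAT, HTSeq, DESeq2 and R 3.2.0, per the submitters' processing notes. The role of each tool, like the annotation and the strand setting, was not given in the sources used here. Each deposited FPKM value equals the count divided by a gene length and the library total (100% of values within a relative tolerance of 0.001).

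Counts were tested with edgeR 4.0.16 in R 4.3.3: filterByExpr (minimum count 10), TMM, group as the only term, quasi-likelihood test, Benjamini-Hochberg adjustment over 13567 genes. CPM uses TMM-scaled library sizes. The SE is the log2 fold change divided by the square root of F. The fit was tested on simulated data with changes larger than those of the receptors. That test does not show how often changes of the receptors' size are found. At these depths the spread between libraries, not counting, limits most members other than AREG and BTC. No pair of libraries in a group agreed within sampling noise (chi-square per degree of freedom 5.32 to 26.1).

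The members and lists were chosen with earlier results of these data known. Named genes are all members, the family list, up to 6 called genes per pathway list, otherwise up to 2 with the smallest p, and the 3 genes most like EGFR, MET and AREG. ADAM17, SDC4, MUC1, ITGB4, EPHA2, AXL, ERRFI1, CBL, DUSP6, EGR1 and CCND1 were named after their values were seen. So were ADAM9, ADAM15, RHBDF1, FRMD8, FURIN, CNIH1, HGFAC and ST14. Of 19876 symbols, 18832 matched the RefSeq table of GRCh38.p14. Alternatives were other scalings, DESeq2 1.42.0 (Wald test, no independent filtering), limma 3.58.1 (voom, and trend on log2(FPKM + 1) or log2(FPKM + 0.1)), other filters, a length offset (spline with 5 degrees of freedom), a replicate block and leaving out each library.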

Additional observations from a re-analysis of the deposited data

How the results depend on the processing

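The log2 fold changes of EGFR, ERBB2, ERBB3, MET, AREG, EREG, TGFA and HBEGF kept their sign under all 17 alternatives that could test them, while the calls did not. ERBB2 passed in 7 of 17, EGFR in 4 and ERBB3 in 4, and no alternative called MET or a ligand. The 1 member called higher became 0 with library size alone, with a mean of at least 5 CPM, with a length offset and in all 3 FPKM fits, and 3 with DESeq2 and with no low-count filter. Over all genes, 396 higher and 92 lower calls became 708 and 300 with DESeq2, 940 and 483 with no low-count filter, 205 and 26 with a mean of at least 5 CPM, 62 and 21 with log2(FPKM + 1), 64 and 22 with log2(FPKM + 0.1), and 0 and 0 with log2(FPKM + 1) and no filter on low values. The length offset gave 155 lower calls and 271 higher ones, and with it the median of all genes was -0.04. Of pathway list genes, 19 called higher and 0 lower became 31 and 2 with no low-count filter, 8 higher with a mean of at least 5 CPM, 11 and 1 with the length offset, 1 higher with either filtered FPKM fit and 0 with the unfiltered one, and DESeq2 called 3 lower. With 1 library left out, 9 to 924 genes were called higher and 3 to 436 lower, 0 to 3 members higher and 0 lower, and 0 to 28 pathway list genes higher and 0 to 1 lower. The lowest counts of all genes came without PBS replicate 3 (9 and 3) and PBS replicate 2 (18 and 5), the highest without rhTR11B replicate 1 (924 and 436). The sign turned for NRG1 with the length offset (-0.037) and without rhTR11B replicate 3 or PBS replicate 3 (-0.022 to 0.058 over the 6 fits), for BTC without rhTR11B replicate 1 or PBS replicate 1 (-0.495 to 0.188), and for ERBB4 without rhTR11B replicate 3 (-0.086 to 0.328). None of these values passed the test, and the cause of these shifts was not tested.

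Whether the replicate numbers pair the libraries is not stated in the labels. Same-numbered libraries correlated at -0.105, 0.0506 and -0.00666 in their deviations from the group means. Libraries of different numbers correlated at -0.103 to 0.115. With 3 libraries in a group these values cannot settle whether the libraries were paired. With the replicate block, 774 genes were called higher and 252 lower, 2 members higher (ERBB2 and ERBB3) and 26 pathway list genes higher. Depth limits BTC, whose counting error was 29.5% per library, and AREG.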

Other observations

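ERBB2 lies in a dense stretch of chromosome 17 with PGAP3, MIEN1 and GRB7, whose values were looked up after that of ERBB2 was seen. PGAP3, a gene of membrane anchor remodelling, had 20.4 ± 2.89 CPM with rhTR11B and 17.0 ± 1.24 CPM with PBS (log2 fold change 0.26, edgeR adjusted p = 0.115). MIEN1 had 25.9 ± 1.04 CPM with rhTR11B and 27.8 ± 0.579 CPM with PBS (log2 fold change -0.10, adjusted p = 0.399). GRB7, with 0.23 (adjusted p = 0.0584), lay close to the 0.28 of ERBB2. For GRB7 and PGAP3 every rhTR11B library was above every PBS library, and for MIEN1 every rhTR11B library was below every PBS library, where 15.1% and 14% of all tested genes separated in these directions.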
